A study of Mus musculus with 8 samples.

Results

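The transcripts of 34 established direct targets and regulators of p53 were followed in 8 Fah-/- mice, leaving out Cdkn1a and the Bcl2 family. The genes were listed by name, with earlier results of these data known, and not by a threshold on the values. All 34 of 34 were found among the 22504 genes of the deposited table, and 33 passed the floor, set at an FPKM of 1 or more in 2 or more of the 8 samples, which 11007 genes passed in all. Ephx3, an epoxide hydrolase, lay below the floor in every sample, with an FPKM between 0.0268 and 0.172, and was not tested. FPKM divides the fragments of a gene by its length and by all mapped fragments, so that levels of different genes can be set side by side. Fah-/- mice cannot complete the breakdown of tyrosine and were kept on the drug NTBC (7.5 mg/L), which blocks an earlier step of it. All 8 mice had the 129S4 background. The 3 mice of the C 8w group had 8 weeks of moderate chronic liver injury (MCLI) on 2.5% NTBC. The 2 mice of the C 12w group had 12 weeks of it, and the tissue given for them is tumor. The 3 mice of the C 8w + A 4w group had 8 weeks of MCLI and then 4 weeks of severe acute liver injury (SALI) without NTBC, and the tissue given for them, like that of C 8w, is liver. No mouse with intact Fah or without injury was among the samples, so each comparison is between 2 kinds of injury. RNA of whole tissue was measured, in which fewer cells of a type and less RNA per cell cannot be told apart.

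p53 is a transcription factor that damaged or stressed cells stabilise. It switches on genes that stop the cell cycle, repair DNA, adjust metabolism or kill the cell, and among them genes such as Mdm2 whose products bring p53 down again. In the liver p53 is known for restraining the division of damaged hepatocytes and the growth of tumors from them. p53 is controlled mainly as a protein, so the level of the Trp53 transcript does not measure its activity. The comparisons ask how the transcripts of this programme stood after chronic injury, in tumors and after severe injury.

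Hepatocyte markers were abundant in all 8 samples, whereas 6 of 7 photoreceptor markers were under an FPKM of 1 in all of them, although the extraction text of the labels names the retina. The codes of the C 8w + A 4w samples form a series of their own, so that group and series cannot be told apart, while C 8w and C 12w share another. Alb, the albumin gene, was listed at 0 in all 5 samples of the shared series and lay between 12946 and 16949.8 in the 3 others, and Gapdh lay between 0.0980 and 0.247 in the 5 against 68.2 and 99.9 in the 3. No member was listed at 0 in any sample. Transcripts of Fah itself, which all mice lack as a functional gene, had FPKM values of 13.5 to 16.8 in the 5 samples and of 5.02 to 6.36 in the 3. The number of reads behind each sample is unknown.

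RefSeq promoter windows, from 250 bases before to 50 after each listed start (GRCm38.p6), were found for 26 of the 34 genes. The 10-base p53 response element motif, which reads the same on both strands, was present without mismatch in at least 1 window of 11 of the 26 (42.3%), against 9.55% of 27025 genes with a window. A pair of these motifs, at most 13 bases apart and with at most 2 mismatches outside their central 4 bases, was present in 3 of 26 (11.5%), against 2.47% of all genes. These were Ckap2, Rps27l and Sesn1. Matches to a motif are a description of the letters and say nothing of binding in these mice. The stretches below carry the motif in regulators of p53 and in targets whose levels are given further on. They are printed 5′ to 3′ on the strand of the gene, with the motif in capitals, and in Ckap2, Rps27l and Sesn1 the capitals include both motifs of the pair.
Trp53, chr11:69580269-69580308, plus strand: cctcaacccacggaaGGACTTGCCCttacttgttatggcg
Mdm2, chr10:117710920-117710959, minus strand: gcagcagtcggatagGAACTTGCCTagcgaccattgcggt
Ccng1, chr11:40755447-40755486, minus strand: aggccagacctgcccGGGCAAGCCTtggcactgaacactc
Ppm1d, chr11:85311107-85311146, plus strand: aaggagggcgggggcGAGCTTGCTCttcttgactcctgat
Gadd45a, chr6:67037423-67037462, minus strand: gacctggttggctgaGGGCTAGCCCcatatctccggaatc
Ckap2, chr8:22185988-22186037, minus strand: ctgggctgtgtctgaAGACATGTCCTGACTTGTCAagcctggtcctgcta
Rps27l, chr9:66946188-66946330, plus strand: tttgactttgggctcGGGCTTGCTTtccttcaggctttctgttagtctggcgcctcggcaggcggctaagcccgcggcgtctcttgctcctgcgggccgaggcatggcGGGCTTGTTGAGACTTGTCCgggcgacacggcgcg
Sesn1, chr10:41887238-41887290, plus strand: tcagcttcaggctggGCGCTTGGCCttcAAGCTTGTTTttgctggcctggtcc
The pair of Rps27l began 117 bases before the start with no base between its motifs and 1 mismatch, and this window held a further single motif upstream. The pairs of Ckap2 and Sesn1 had 2 mismatches each and began 203 and 186 bases before the start, with 0 and 3 bases between the motifs. No window was found for Tnfrsf10b, Perp, Trp53inp1, Zmat3, Xpc, Ddb2, Rrm2b and Cdc42bpg.

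The 3 groups were compared in 1 limma fit of log2(FPKM + 1) over all 11007 genes, and a gene is called differentially expressed where its p, adjusted after Benjamini and Hochberg, was under 0.05. Changes on this scale understate the change of low genes. By the moderated F test over the 3 groups, 22 of 33 members (66.7%) differed, against 50.3% of all genes tested. Of these 22, the highest group mean was that of C 8w + A 4w for 13 (59.1%, against 46.6% of all genes that differed), that of C 12w for 5 (22.7% against 33.6%) and that of C 8w for 4 (18.2% against 19.8%). The members thus did not move as 1 block. Ccng1, Zmat3, Eda2r, Phlda3 and Trp53inp1 had their highest mean after severe injury and their lowest in the tumors, Gadd45a was high in both, Ckap2 was highest in the tumors and Dcxr in C 8w. Levels ranged widely. Rps27l, Trp53inp1 and Ei24 were abundant in every group, with FPKM values between 49.5 and 188 over the 3 genes, whereas Pidd1 stayed between 0.792 and 1.40.

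**Figure D1:**
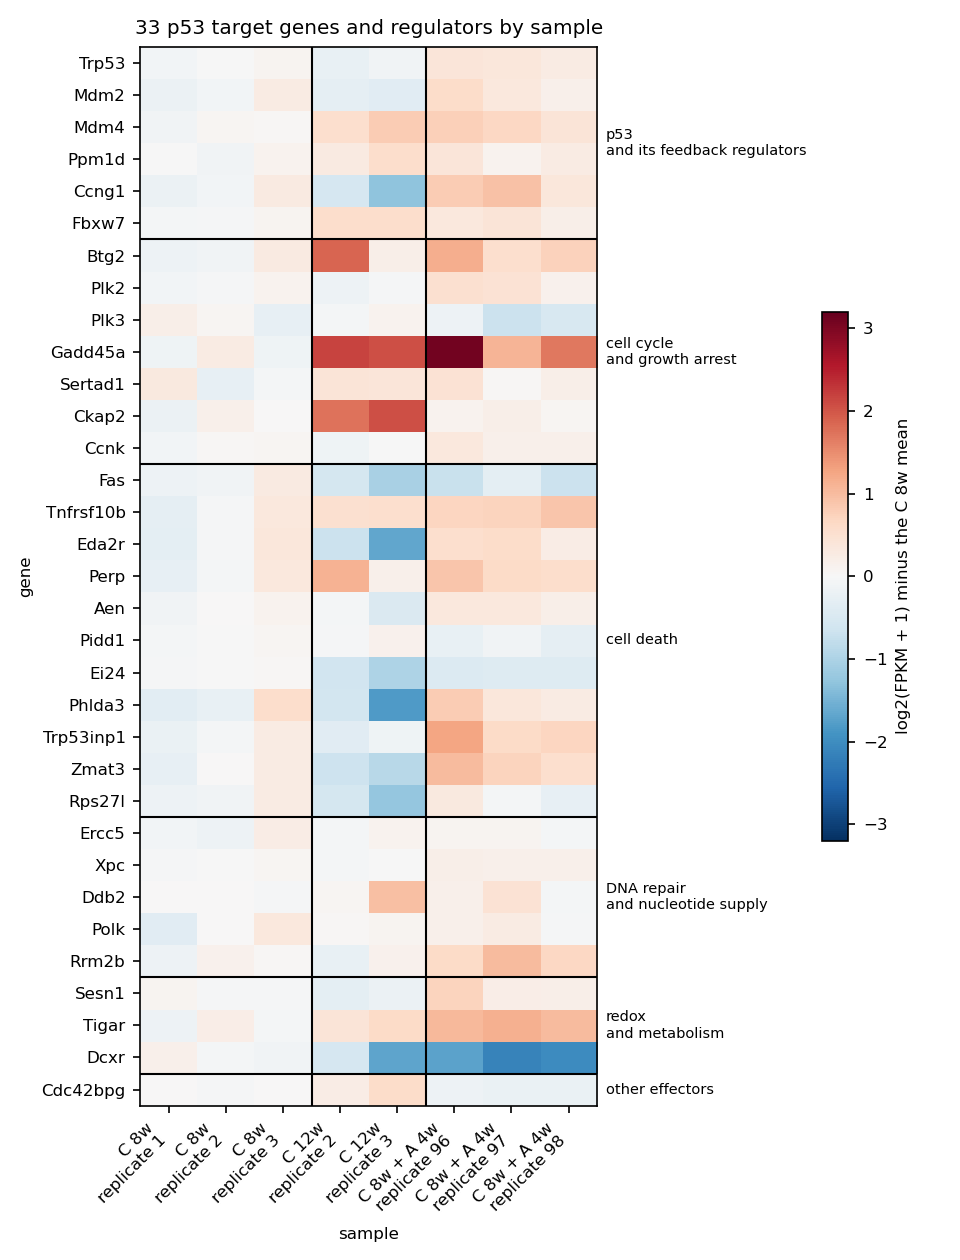
Colour gives log2(FPKM + 1) of each of the 33 tested members (rows, by role) in each of the 8 samples (columns) minus the gene's mean in the 3 C 8w samples. Ccng1, Zmat3, Eda2r and Phlda3 are blue in both C 12w samples and red in the 3 C 8w + A 4w samples, while Dcxr is blue in all 5.

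Adding 4 weeks of severe injury after 8 weeks of chronic injury was examined by comparing C 8w + A 4w with C 8w, whose mice were also sampled 4 weeks earlier. Of 33 members 14 were differentially expressed (42.4%, against 39.1% of all genes), 11 higher and 3 lower, where 25.6% of all genes were higher and 13.5% lower. Of the 14, 3 changed by 1 or more on the log2 scale (Gadd45a, Dcxr and Tigar), and 11.4% of all genes met both limits. The share called was thus close to that of all genes. The median log2 fold change was 0.31 over the members and 0.13 over all genes, and 26 of 33 members, against 60.8% of all genes, were above 0.

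Among p53 and its feedback regulators, 4 of 6 rose and none fell, where 25.6% of all genes rose. Under each of 2 other scalings of the samples 1 of the 6, Mdm4, was called higher, and without a floor 2 of 6, where 16.3% of all genes were. Trp53 had an FPKM of 15.7, 16.3 and 17.8 in the 3 C 8w mice and of 22.1, 21.5 and 20.2 in the 3 C 8w + A 4w mice, with no overlap (log2 fold change 0.34, SE 0.10, adjusted p = 0.0267, limma). Mdm2, the ubiquitin ligase that marks p53 for destruction, had 20.3, 21.7 and 27.9 against 35.2, 29.1 and 25.7. The ranges of Mdm2 overlapped, and its difference of 0.36 did not pass the test (SE 0.16, adjusted p = 0.103). Mdm4, a relative of Mdm2 that blocks p53 on its target genes, rose by 0.61 on the log2 scale. Ccng1, the cyclin G1 gene and a classical target, rose by 0.70, and Fbxw7, the substrate receptor of a ubiquitin ligase, by 0.31.

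Of the 7 genes of cell cycle and growth arrest 2 rose (28.6%, near the 25.6% of all genes), and without a floor 1 of 7 (14.3%, against 16.3%). Gadd45a, a growth arrest gene that DNA damage induces, had an FPKM of 3.65, 5.10 and 3.62 in C 8w and of 42.4, 9.86 and 15.5 in C 8w + A 4w (log2 fold change 1.96, SE 0.43, adjusted p = 0.00791). All 3 values after severe injury were above all 3 before it, but they spanned a wide range, with replicate 96 far above the others. Plk2, a polo-like kinase, rose by 0.37.

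Of the 11 cell death genes 3 rose and 2 fell (27.3% and 18.2%, near the 25.6% and 13.5% of all genes). Trp53inp1, which promotes autophagy and cell death under stress, had 62.6, 69.6 and 86.2 against 176, 110 and 116 (log2 fold change 0.85, SE 0.20, adjusted p = 0.0119), and again replicate 96 was the highest. Tnfrsf10b, the mouse receptor of the death ligand TRAIL, had 1.99, 2.56 and 3.67 against 4.92, 5.07 and 5.76 (log2 fold change 0.76, SE 0.16, adjusted p = 0.00677). Zmat3, an RNA-binding zinc finger protein, rose by 0.75. The death receptor gene Fas fell by 0.57 and Ei24, an endoplasmic reticulum protein of autophagy, fell by 0.42.

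In DNA repair and nucleotide supply 1 of 5 genes rose (20.0%, below the 25.6% of all genes). Rrm2b, the p53-induced subunit of ribonucleotide reductase, had 1.42, 1.95 and 1.76 against 3.13, 4.49 and 3.28 (log2 fold change 0.77, SE 0.16, adjusted p = 0.00628). The damage recognition genes Xpc and Ddb2, the nuclease gene Ercc5 and the bypass polymerase gene Polk did not pass the test, with differences between 0.03 and 0.19. Of the 3 tested genes of redox and metabolism 1 rose and 1 fell (33.3% each, against 25.6% and 13.5% of all genes). Tigar, a phosphatase that lowers glycolytic flux, had 2.82, 4.00 and 3.13 against 7.83, 8.37 and 7.69 (log2 fold change 1.06, SE 0.13, adjusted p = 0.000372). Dcxr, a dicarbonyl and xylulose reductase that is abundant in liver, went the other way, with 60.3, 51.8 and 49.5 against 15.7, 11.5 and 12.7 (log2 fold change -1.95, SE 0.27, adjusted p = 0.000817). Neither gene's groups overlapped, and these were the smallest adjusted p-values of the members in this comparison.

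The calls for Mdm4, Gadd45a, Tnfrsf10b, Zmat3, Rrm2b, Tigar and Dcxr were kept without each of the 8 samples in turn, 7 of 14. Of these 7, all but Zmat3 and Dcxr share more than 2% of their sequence with other genes. Trp53inp1 lost its call without C 8w replicate 1 (adjusted p = 0.0543), and Trp53 and Ccng1 lost theirs without C 8w replicate 1 or 2 or without C 8w + A 4w replicate 96 or 97, with adjusted p-values up to 0.107 and 0.142. The number called was 7, 8 and 11 without C 8w replicates 1, 2 and 3 (21.2%, 24.2% and 33.3%), where 24.3%, 28.4% and 29.2% of all genes were called. It was 9, 9 and 12 without C 8w + A 4w replicates 96, 97 and 98 (27.3%, 27.3% and 36.4%), where 30.3%, 34.8% and 31.3% of all genes were. Without either C 12w sample it was 17 (51.5%), against 50.1% of all genes. Scaling also bore on the split. Median-ratio scaling of the samples moved the median of all genes from 0.13 to 0.0057 and quantile normalization moved it to -0.04, and each left 13 members called (39.4%), 7 higher and 6 lower. All genes shifted likewise, with 39.5% called under the first (19.7% higher and 19.8% lower) and 39.2% under the second (17.2% and 22.0%). Under both, Trp53, Ccng1, Fbxw7 and Plk2 were no longer called and Plk3, Pidd1 and Cdc42bpg were called lower. Relative to the median of all genes, Trp53 was higher by 0.21 on the log2 scale, Ccng1 by 0.58, Trp53inp1 by 0.72, Tigar by 0.94 and Gadd45a by 1.84. Of other cells, 4 endothelial markers summed to 13.3 to 21.9 in C 8w + A 4w against 33.7 to 36.6 in C 8w, with 3 of 4 lower, and 5 bile duct markers to 8.02 to 9.76 against 1.26 to 3.41, with 1 of 3 tested higher and Cftr near 0 throughout. Macrophage markers summed to 79.1 to 290 against 96.8 to 109, with none of 6 tested called, and the highest sum was that of replicate 97. Of 9 tested hepatocyte markers 2 were higher and 3 lower, and without Alb 8 of them summed to 12676 to 14950 against 13705 to 17623. Of 7 stellate cell and fibroblast markers 1 was lower, with sums of 9.85 to 20.8 against 13.3 to 18.1. The part of these cells was not tested.

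**Figure D2:**
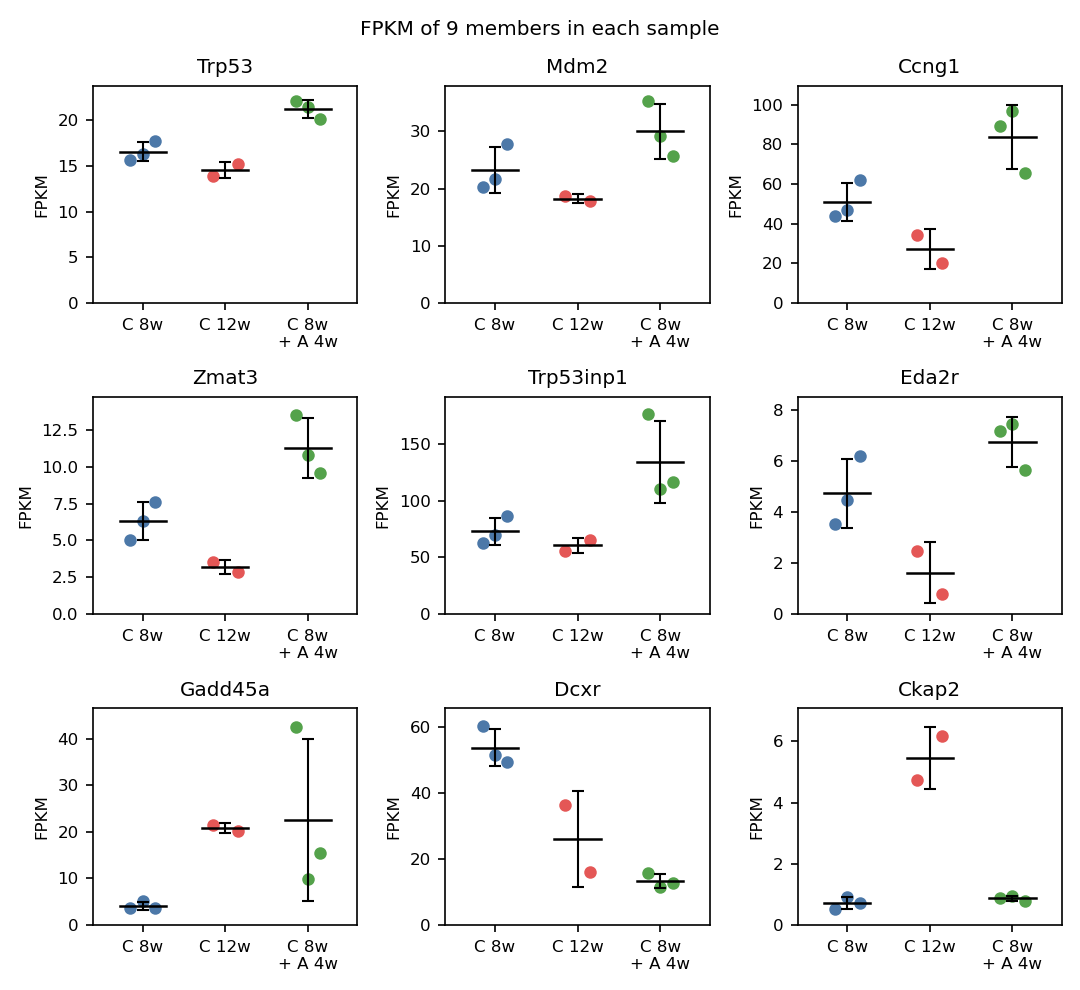
Each panel gives the FPKM of 1 member in each sample (points), the group mean (line) and the standard deviation (bar) for C 8w (3 mice), C 12w (2) and C 8w + A 4w (3). The means of Ccng1, Zmat3 and Eda2r descend from C 8w + A 4w over C 8w to C 12w. For Eda2r the values of C 8w + A 4w and C 8w overlap, and their difference was not called (adjusted p = 0.196, limma). Ckap2 stands at 4.74 and 6.16 in C 12w and below 1 in the other 6 samples.

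The tumors that followed 12 weeks of chronic injury were compared with livers at 8 weeks (C 12w against C 8w), a comparison within 1 series of sample codes. Of 33 members 12 were differentially expressed (36.4%, against 20.0% of all genes), 5 higher and 7 lower, where 13.1% of all genes were higher and 6.90% lower. Of the 12, 4 changed by 1 or more on the log2 scale (Gadd45a, Ckap2, Eda2r and Dcxr), as had 5.81% of all genes. The median log2 fold change was -0.05 over the members and 0.12 over all genes. Only 16 of 33 members, against 62.1% of all genes, were above 0. Without a floor, 4 of 34 members (11.8%) were called, 3 higher and 1 lower, against 10.2% of all 17762 genes, and Ccng1, Gadd45a, Fas, Eda2r, Zmat3, Rps27l, Tigar and Dcxr were no longer among them. In a fit of only these 2 groups 6 of 33 were called (18.2%), against 14.6% of all genes.

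Trp53 had an FPKM of 13.9 and 15.2 in the 2 C 12w mice, both below the 3 C 8w values, and Mdm2 had 18.8 and 17.7, likewise below all of C 8w. Neither difference passed the test (Trp53 -0.17, SE 0.11, adjusted p = 0.283, and Mdm2 -0.32, SE 0.17, adjusted p = 0.213). Their feedback partners split. Ccng1 had 34.3 and 20.2 against 44.0, 47.1 and 61.8 in C 8w (log2 fold change -0.91, SE 0.26, adjusted p = 0.0417), whereas Mdm4 rose by 0.68 and Fbxw7 by 0.56.

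Of the 11 cell death genes 5 fell and none rose, where 6.90% of all genes fell. Without a floor 1 of the 11, Ei24, was called lower, where 3.67% of all genes were, and Ei24 alone of the 5 kept its call without each sample in turn. Eda2r, a receptor of the TNF receptor family, had 2.47 and 0.780 in C 12w against 3.52, 4.47 and 6.18 in C 8w (log2 fold change -1.18, SE 0.29, adjusted p = 0.0267). Rps27l, a ribosomal protein relative that p53 induces, had 102 and 64.2 against 136, 140 and 183 (log2 fold change -0.90, SE 0.25, adjusted p = 0.0387). In both genes C 12w replicate 3 was the lower and no value reached C 8w. Ei24 fell by 0.81, Fas by 0.80 and Zmat3 by 0.79. Phlda3, an inhibitor of the survival kinase Akt, had 9.46 and 3.49 against 11.5, 12.4 and 22.1. Its difference of -1.19 missed the threshold (adjusted p = 0.0602). Over the samples left out in turn this difference ran from -1.80 to -0.58.

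In the cell cycle and growth arrest group 2 of 7 were higher (28.6%, against 13.1% of all genes). None was lower and 5 did not pass the test. Without Ckap2, which passed the floor through the tumors alone, 1 of 6 was higher. Without a floor 1 of the 7, Ckap2, was higher (14.3%, against 6.53%). Gadd45a had 21.6 and 20.1 in C 12w, well above the 3.62 to 5.10 of C 8w (log2 fold change 2.10, SE 0.48, adjusted p = 0.0199). Ckap2, which organises the mitotic spindle of dividing cells, had 4.74 and 6.16 against 0.516, 0.921 and 0.732 (log2 fold change 1.90, SE 0.15, adjusted p = 0.000375). In both genes the tumors lay above every C 8w mouse. Ckap2 was below an FPKM of 1 in all 6 samples other than the tumors and so entered the test only through the group where it is high. With the floor raised to 4 samples it was not tested, and without a floor its adjusted p was 0.00157. In redox and metabolism Tigar rose by 0.51 and Dcxr fell, with 36.6 and 16.0 in C 12w (log2 fold change -1.12, SE 0.30, adjusted p = 0.0337). None of the 5 genes of DNA repair and nucleotide supply was called.

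Without each sample in turn 2 of the 12 calls were kept in every case, those of Ei24 and of Ckap2, whose test depended on the tumors, and the number called was 4, 5 and 4 without C 8w replicates 1, 2 and 3 (12.1%, 15.2% and 12.1%), where 8.09%, 10.4% and 8.54% of all genes were called. It was 5 without C 12w replicate 3 (15.2%, against 15.5% of all genes) and 17 without C 12w replicate 2 (51.5%, against 36.1%). Without C 12w replicate 3, Gadd45a, Eda2r, Dcxr, Ccng1 and Rps27l lost their calls, and over all samples left out in turn their largest adjusted p-values were 0.0690, 0.103, 0.108, 0.197 and 0.174. Without that tumor the log2 fold change of Gadd45a was 2.15, whereas that of Eda2r was -0.70, of Dcxr -0.54, of Ccng1 -0.54 and of Rps27l -0.56, these 4 each over 1.5 times smaller than with both tumors. Median-ratio scaling moved the median of all genes from 0.12 to 0.0083 and left the same 12 members called (36.4%). Of all genes 20.4% were then called, 9.88% higher and 10.6% lower. Under quantile normalization 9 of the 12 remained called (27.3%), and Fbxw7, Rps27l and Tigar were lost. Of all genes 19.1% were then called, 9.02% higher and 10.1% lower. Under both scalings more of all genes were thus lower than the 6.90% without further scaling.

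Markers of other cell types differed between these groups as well. The summed FPKM of 5 bile duct markers was 5.95 and 28.0 in C 12w against 1.26 to 3.41 in C 8w, and Cftr, at most 0.0396, was near 0 in every sample. That of 7 stellate cell and fibroblast markers was 23.95 and 46.7 against 13.3 to 18.1, and that of 4 endothelial markers was 14.5 and 20.4 against 33.7 to 36.6. In these lists 2 of 3, 3 of 7 and 3 of 4 tested markers were called, in that order, the last lower and the others higher. The part of these cells in the members' differences was not tested. The sum of 8 hepatocyte markers without Alb ranged from 11680 to 16807 in C 12w and from 13705 to 17623 in C 8w.

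The last comparison set the 2 groups with 12 weeks of injury in all against each other, C 8w + A 4w against C 12w. Of 33 members 15 were differentially expressed (45.5%, against 34.2% of all genes), 13 higher after severe injury and 2 lower, where 18.1% of all genes were higher and 16.1% lower. Of the 15, 6 changed by 1 or more on the log2 scale, as had 12.5% of all genes. The median was 0.23 over the members and 0.0070 over all genes, and 21 of 33 members, against 50.6% of all genes, were above 0. This comparison shares its samples with the previous 2, so its values are not independent of theirs.

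Trp53 (log2 fold change 0.51, SE 0.11, adjusted p = 0.00845) and Mdm2 (0.68, SE 0.17, adjusted p = 0.0179) were both higher in C 8w + A 4w, and in neither gene did the groups overlap. Ccng1 had 89.1, 96.6 and 65.5 in C 8w + A 4w against 34.3 and 20.2 in C 12w (log2 fold change 1.61, SE 0.26, adjusted p = 0.00220). Every severe injury value was thus above every tumor value for these 3 genes, among them p53 itself and its main antagonist.

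In the cell death group 6 of 11 were higher (54.5%, against 18.1% of all genes) and none lower, where 16.1% of all genes were. Without a floor 5 of 11 were higher (45.5%, against 11.9%). Of the 6, only Eda2r, Trp53inp1 and Zmat3 kept their calls without each sample in turn. Phlda3 had 26.7, 19.2 and 17.8 against 9.46 and 3.49 (log2 fold change 1.67, SE 0.38, adjusted p = 0.0111). Eda2r had 7.16, 7.46 and 5.64 against 2.47 and 0.780 (log2 fold change 1.63, SE 0.29, adjusted p = 0.00358). The ranges of both were far apart. Zmat3 had 13.5, 10.8 and 9.55 against 3.54 and 2.88 (log2 fold change 1.54, SE 0.19, adjusted p = 0.000543), and Trp53inp1 had 176, 110 and 116 against 55.8 and 65.3 (log2 fold change 1.10, SE 0.23, adjusted p = 0.00687). Rps27l was higher by 0.89 and Aen, a nuclease that takes part in apoptosis, by 0.54.

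Of the remaining roles, Rrm2b was higher by 0.82, Sesn1, a sestrin that restrains growth signalling, by 0.62, Tigar by 0.55 and Plk2 by 0.47. Ckap2 had 0.868, 0.955 and 0.794 against 4.74 and 6.16 (log2 fold change -1.78, SE 0.15, adjusted p = 5.91e-05) and 0.516 to 0.921 in C 8w. Here too it was tested only through the tumors. Cdc42bpg, a kinase that binds the small GTPase Cdc42, fell by 0.60. Gadd45a, higher than in C 8w in both groups, was not called here, with a difference of -0.14 and a 95% interval from -1.24 to 0.95. Without each sample in turn, the calls for Trp53, Ccng1, Ckap2, Eda2r, Trp53inp1, Zmat3, Rrm2b and Cdc42bpg were kept, 8 of 15. Mdm2, Phlda3, Aen and Rps27l lost theirs without C 12w replicate 3, Aen and Rps27l also without replicate 96, and Aen without replicate 97. Over the samples left out, their log2 fold changes ran from 0.56 to 0.78, 1.06 to 2.28, 0.33 to 0.75 and 0.56 to 1.22. Plk2 kept its call only without replicate 98, and Sesn1 and Tigar lost theirs without C 12w replicate 2. Rps27l also lost its call under quantile normalization and without a floor. In a fit of only the 2 groups compared Rps27l, Aen, Plk2 and Sesn1 lost theirs. Macrophage markers summed to 79.1 to 290 in C 8w + A 4w and to 104 and 116 in C 12w, the highest value being that of replicate 97. None of the 6 tested macrophage markers was called. Of 7 stellate cell and fibroblast markers 3 were lower and 1 higher in C 8w + A 4w, with sums of 9.85 to 20.8 against 23.95 and 46.7. Of 9 tested hepatocyte markers 3 were lower and 1 higher, and without Alb 8 of them summed to 12676 to 14950 against 11680 and 16807. The part of these cells in the members' differences was not tested.

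**Figure D3:**
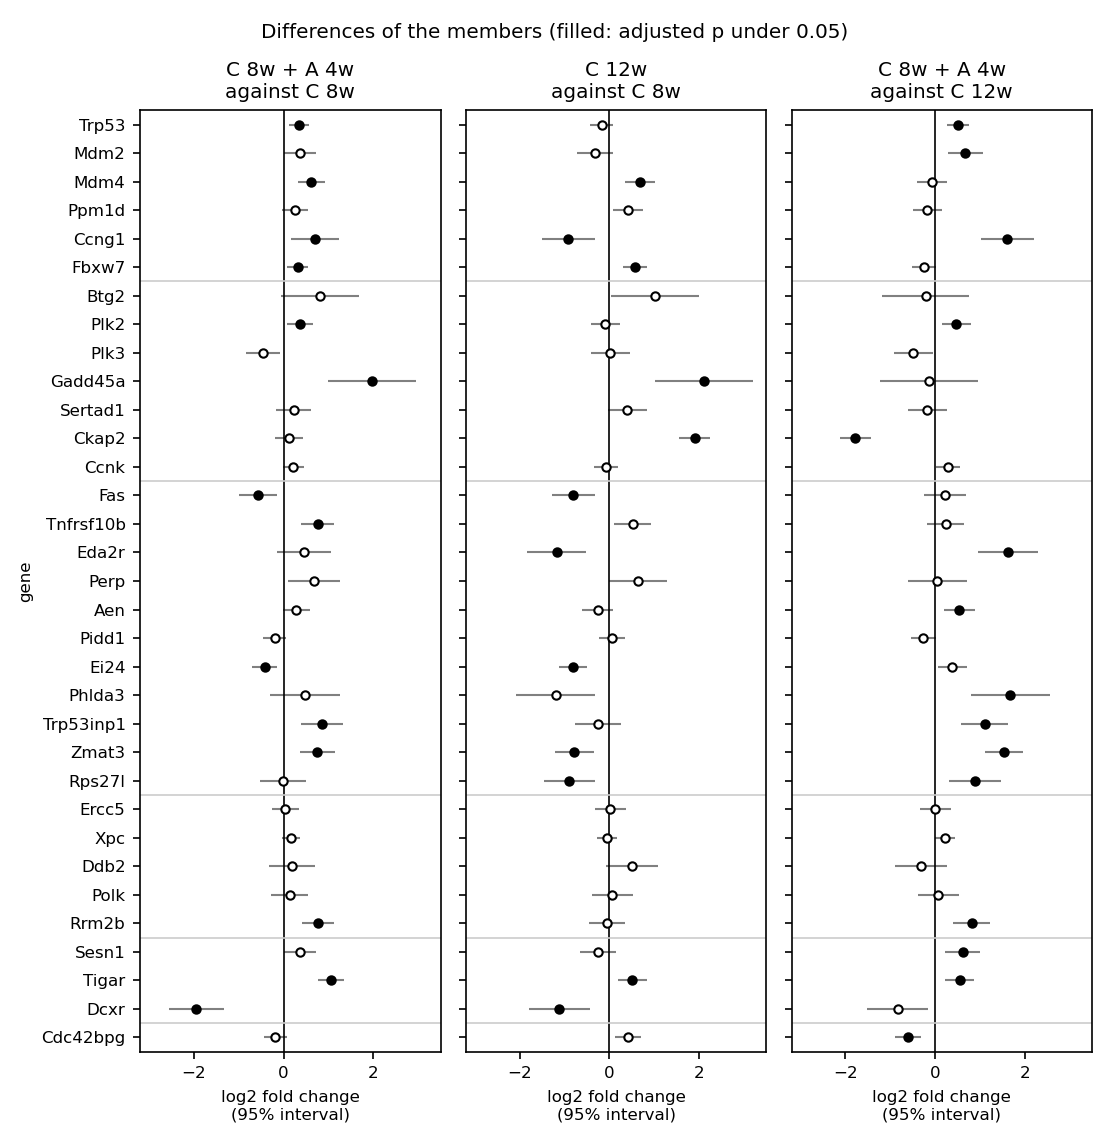
Log2 fold change of each member on the log2(FPKM + 1) scale with its 95% interval from limma, by role, for the 3 comparisons. Filled points passed an adjusted p of 0.05: 14, 12 and 15 members. In the middle panel, tumors against C 8w, the 5 filled points of the cell death genes lie left of 0, of which 1, Ei24, was also called without a floor, and in the right panel the 6 lie right of it.

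**Figure D4:**
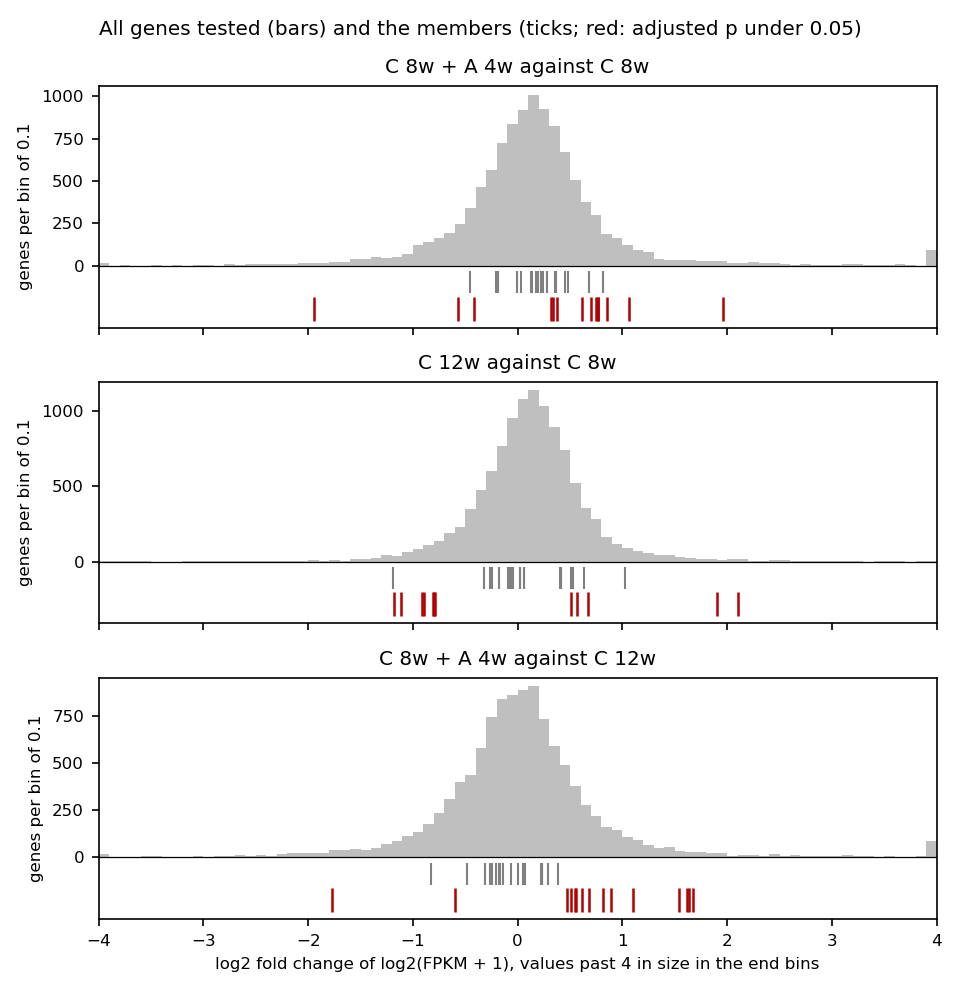
Bars count all 11007 genes tested by log2 fold change in bins of 0.1, and the ticks below mark the 33 members, in red where the adjusted p was under 0.05 and in grey otherwise. The members spread over the same range as most genes, with medians of 0.31, -0.05 and 0.23 against 0.13, 0.12 and 0.0070.

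In the fit without further scaling, 11 of the 33 members passed neither the F test nor any of the 3 comparisons. In the growth arrest group these were Btg2 (FPKM 9.44 to 41.6), an antiproliferative gene, Plk3 (20.97 to 39.2), Sertad1 (5.13 to 9.19), a partner of Cdk4, and Ccnk (7.61 to 11.0), a cyclin of transcribing polymerase. In the cell death group they were Perp (30.6 to 81.2), a desmosome protein, and Pidd1 (0.792 to 1.40), a scaffold that activates caspases. Ercc5 (2.86 to 4.10), Xpc (5.02 to 6.16), Ddb2 (1.28 to 3.59) and Polk (1.29 to 2.71) make up the repair group apart from Rrm2b. The last was Ppm1d (1.32 to 2.68), a phosphatase that switches p53 signalling off. Under other settings some of them were called. Plk3 and Pidd1 passed the F test after quantile normalization (adjusted p = 0.0438 and 0.0230), and Btg2, Plk3, Perp, Ddb2 and Ppm1d were called in at least 1 comparison when single samples were left out. A missed threshold does not show that these genes were equal in the 3 groups. Btg2, for one, had an interval from -0.06 to 1.69 in C 8w + A 4w against C 8w.

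The mice of a group also differed among themselves. Replicate 3 had the highest value of C 8w for 23 of 33 members (69.7%, against 43.3% of all genes tested) and replicate 1 the lowest for 24 (72.7% against 51.8%). In C 8w + A 4w, replicate 96 was the highest for 20 (60.6% against 33.5%) and replicate 98 the lowest for 21 (63.6% against 38.0%). Mdm2, Phlda3, Zmat3, Rps27l and Trp53inp1 all had this maximum in C 8w replicate 3 and in C 8w + A 4w replicate 96. In the 2 tumors the members divided much as all genes did, with replicate 3 the higher for 19 of 33 (57.6% against 60.8%). Their median log2 range within C 8w, C 12w and C 8w + A 4w was 0.39, 0.23 and 0.36, against 0.20, 0.29 and 0.29 over all genes. A log2 range of at least 1 occurred in 0 members in C 8w (0.963% of all genes), in Btg2, Phlda3 and Dcxr in C 12w (6.95%) and in Gadd45a in C 8w + A 4w (4.20%).

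Cdkn1a, the p21 gene and the best known arrest target of p53, was no member but lay beside them, with FPKM values of 39.5, 46.0 and 67.0 in the 3 C 8w mice, 41.4 and 43.2 in the tumors and 109, 93.99 and 86.1 in C 8w + A 4w. It rose in C 8w + A 4w against C 8w (log2 fold change 0.94, adjusted p = 0.00602) and against C 12w (1.16, adjusted p = 0.00430), again with the highest C 8w value in replicate 3.

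Among 42 other tested targets of p53, 15 rose and 9 fell when C 8w + A 4w was compared with C 8w, with a median of 0.17 against 0.13 for all genes. These are 35.7% and 21.4% of the list, where 25.6% and 13.5% of all genes were called. In C 12w against C 8w 5 were higher and 5 lower, 11.9% each against 13.1% and 6.90% of all genes (median -0.03). In C 8w + A 4w against C 12w 12 were higher and 5 lower, 28.6% and 11.9% against 18.1% and 16.1% (median 0.20). Kitl, the ligand of the receptor Kit, stood at 0.784 to 1.16 in C 8w, at 4.32 and 5.01 in the tumors and at 7.04 to 11.1 after severe injury, and was called in all 3 comparisons. The groups did not overlap, with C 8w lowest and severe injury highest. Gls2, the liver glutaminase, went the opposite way, with 107 to 132 in C 8w, 136 and 69.4 in the tumors and 14.5 to 24.5 after severe injury (log2 fold change against C 8w -2.61). Pmaip1, a death gene of the Bcl2 family, rose by 1.34 and Zfp385a, a partner of p53, fell by 1.23 in C 12w against C 8w.

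Of 29 tested genes upstream of p53, such as kinases, ligases and cofactors, 9 rose and 2 fell when C 8w + A 4w was compared with C 8w (31.0% and 6.90%, against 25.6% and 13.5% of all genes). In C 12w against C 8w 6 were higher and 2 lower (20.7% and 6.90%, against 13.1% and 6.90%), and in C 8w + A 4w against C 12w 4 and 2 (13.8% and 6.90%, against 18.1% and 16.1%). The largest of these differences in C 8w + A 4w, those of Rpl11, Rpl23, Rpl5 and Cop1, separated the 2 series of sample codes, and between 11.2% and 48.9% of the sequence of these genes was shared with other genes. Chek1, a kinase of the replication checkpoint, reached an FPKM of 1 in the 2 tumors alone and so was tested only through the group where it is high. Without it 5 of 28 were higher in C 12w against C 8w, and 1 of 28 was lower in C 8w + A 4w against C 12w. In C 12w against C 8w Chek1 was higher by 0.84, Brca1, a repair gene, by 0.79 and Huwe1, a ubiquitin ligase, by 0.79.

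Cell cycle genes that p53 represses through p21 and the DREAM complex were high in the tumors. Of the 32 listed 29 were tested, and 22 of these reached an FPKM of 1 in the 2 tumors alone, so that they had to be higher there to enter the test and their calls follow in part from the floor. All 29 tested were called higher in the tumors when set against C 8w (median 1.88), and 28 were called lower after severe injury when set against the tumors (median -1.79). Of the 7 tested genes with an FPKM of 1 or more in any sample outside the tumors, which for Ube2c was 1 sample, 7 and 6 were called. Without a floor, 31 of all 32 listed genes were called higher in the tumors in the first of these comparisons, as were 6.53% of all 17762 genes, and 30 were called lower after severe injury in the second, as were 9.88%. In C 8w + A 4w against C 8w 1 of the 29 was called, against 39.1% of all genes, but the same 22 were below an FPKM of 1 in every sample of both groups, where values on this scale can hardly differ. Cdc20, which triggers anaphase, stood at 0.607 to 0.717 in C 8w, at 14.5 and 11.9 in the tumors and at 0.900 to 1.58 in C 8w + A 4w. Top2a, the topoisomerase of dividing cells, stood at 0.224 to 0.540, 4.57 and 12.4, and 0.111 to 0.630. Ckap2 among the members was likewise highest in both tumors. The 1 gene called between the other 2 groups was Hmmr, a spindle-associated hyaluronan receptor, with 0.156 to 0.479 in C 8w and 1.51 to 5.68 in C 8w + A 4w (log2 fold change 1.73).

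Over 2% of the 50-base windows of the transcripts of 11 of the 33 members occurred in another gene, as in 38.5% of all genes tested, and 19 members shared none. Above 10% were Ddb2 (17.8%), Gadd45a (15.6%), Rps27l (11.2%) and Rrm2b (10.7%), whose FPKM depends on how shared reads were counted. All genes above 10% were more often called higher in C 8w + A 4w than genes at most 2%, 34.7% against 22.3% when compared with C 8w and 30.7% against 14.4% when compared with C 12w. In C 12w against C 8w these shares were 10.8% and 13.9%. The others over 2% were Mdm4 (7.31%), Ei24 (6.46%), Tnfrsf10b (6.21%), Ckap2 (4.36%), Trp53 (3.95%), Aen (2.04%) and Tigar (2.02%). Of the 14, 12 and 15 members called in the 3 comparisons, 7, 6 and 6 were among the 11 over 2%. How shared reads were counted is not given in the sources used here, and whether they were counted alike in the 2 series of sample codes was not tested. Among the 22 members at or under 2%, tested alone with all other such genes, 5, 6 and 9 were called in the 3 comparisons. With all genes, 7, 6 and 9 of them had been called. In the first comparison the 5 were 22.7%, below the 34.3% of all 6757 such genes. In the fit of all genes, 13.9% of such genes were higher and 6.63% lower in C 12w against C 8w. In C 8w + A 4w against C 12w these shares were 14.4% and 16.5%.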

How the data were processed

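RNA was sequenced from 8 Fah-/- mice, whose samples were assigned to 3 groups (3, 2 and 3 samples) by their treatment labels. The FPKM values were deposited by the authors in 1 table. The submitters' processing notes name Bowtie 0.12.2 and the build mm8, and other steps are not given in the sources used here. The table held no columns of other samples and no read numbers, so depth and counting error are unknown. A gene was tested if its FPKM reached 1 in 2 or more samples. Values were compared as log2(FPKM + 1), without further scaling, in R 4.3.3 with limma 3.58.1 (lmFit, eBayes with a trend, two-sided, Benjamini-Hochberg over all genes, threshold 0.05), in 1 fit of 8 samples.

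The members, their roles and the other lists were chosen with earlier results of these data known. Named with full values were Trp53, Mdm2 and in each comparison the 6 called members with the largest change. Other called members are given with their change, members never called with their range, and at most the 4 largest called genes of other lists. A gene that this rule would name is not reported here. Cdkn1a, Phlda3 in C 12w against C 8w, and Btg2 as an example of an interval were chosen outside this rule with their values known. To measure shared sequence, transcripts of GENCODE M21 were cut into all 50-base windows, and the percentage of a gene's windows that another gene also holds was taken. Promoter windows came from RefSeq (GRCm38.p6). Python 3.11.15 was used for these steps.

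Alternatives were a pseudocount of 0.1, other floors, median-ratio scaling, quantile normalization, a fit of only 2 groups, eBayes with no trend, genes with at most 2% shared sequence, a limit of 1 on the log2 fold change, each sample left out in turn, and a replicate block.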

Additional observations from a re-analysis of the deposited data

How the results depend on the processing

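The main counts were 14, 12 and 15 members called in C 8w + A 4w against C 8w, C 12w against C 8w and C 8w + A 4w against C 12w, and 22 by the F test. No named change that was called turned its direction under any alternative run, and over these alternatives 334 values of named genes kept their side of the threshold and 45 lost the call. Without a floor 4 of 34 members were called in C 12w against C 8w (11.8%, near the 10.2% of all 17762 genes), and in a fit of only those 2 groups 6 of 33 (18.2%, against 14.6% of all genes). Over genes with at most 2% shared sequence 5, 6 and 9 were called, and 12 by the F test, of 22 members tested. In C 8w + A 4w against C 8w this was 22.7%, below the 34.3% of all 6757 such genes. With a limit of 1 on the size of the log2 fold change as well, 3, 4 and 6 were called, fewer by construction. Leaving out each sample in turn gave 7 to 17, 4 to 17 and 12 to 15 members, and 16 to 24 by the F test. Where this left 1 tumor, that sample was assumed to vary like the other groups. No share of all genes accompanies the ranges of C 8w + A 4w against C 12w and of the F test, so these cannot be set against all genes. The numbers 2 and 3 occur in both C 8w and C 12w, but belong to different mice. The differences between numbers 2 and 3 in these groups had a correlation of -0.18 across genes. Genes are not independent replicates, so this value cannot decide whether the samples share more than a number. With the number as a replicate block, over those 4 samples, 2 members were called in C 12w against C 8w. The share of all genes called in that fit is not given here, so this count cannot be read as a loss particular to the members. For the other moved counts the cause was not tested. The number of mice, with 2 tumors, limits the precision, and read depth is unknown.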
